A study of Homo sapiens
Mus musculus and Homo sapiens with 2 samples.

Results

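The cells described here were 2850 A549 cells, those annotated as harvested after 6 h (1404 cells) or 10 h (1446 cells) of dexamethasone, out of 7404 A549 cells and 13711 cells in the whole series. A549 is an established human lung adenocarcinoma line with features of the alveolar epithelium, and dexamethasone is a synthetic glucocorticoid. The treatment protocol gives its dose as 100 nM, while another label of the sample gives 101 nM. All the A549 cells, those of 0 h included, carried 4-thiouridine (200 µM) for the last 2 h before harvest, so the labels separate the groups only by the time on dexamethasone. The assay was sci-fate, a single-cell RNA assay in which 4-thiouridine taken up by the cells is later read as base changes. Each gene thus had a count of whole RNA and a count of new RNA, made during the labelling window, and the difference was taken as pre-existing RNA. The counts of all cells of a time were summed, which gave 1 culture per time and so 1 culture a side. Ratios between 10 h and 6 h therefore have no replicate check and no p-value. A sum over cells cannot tell fewer cells with an RNA from less of it per cell.

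Dexamethasone binds the glucocorticoid receptor, encoded by NR3C1, which moves to the nucleus and acts on target genes as a transcription factor. In lung epithelial cells it is known for the rapid induction of genes such as FKBP5, TSC22D3 and PER1 and for repression of inflammatory genes. The comparison of 10 h with 6 h asks which RNAs were still changing once this primary response was established. New RNA shows what was being made at each time, and whole and pre-existing RNA also carry what was made earlier and has not yet decayed.

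The 6 h culture held 43084614 whole and 9718958 new counts, and the 10 h culture held 40835413 and 8572163. New counts were 22.6% of the whole at 6 h and 21.0% at 10 h, and the median cell had 28027 and 25877 whole counts. No reverse-transcription barcode was shared between the times, so well and time cannot be told apart, whereas all 190 PCR barcodes held cells of both times. No full cell barcode occurred in both. Of 13 A549 markers, 11 were above 10 CPM, counts scaled to a common library total, at both times, with a summed level of 24946 CPM at 6 h and 27994 CPM at 10 h; the exceptions were EPCAM at 4.53 and 3.70 CPM and SFTPB at 0.0928 and 0.171 CPM. No fibroblast marker (of 10), immune marker (of 8) or endothelial marker (of 5) reached 10 CPM, and their summed levels were at most 13.6 CPM. Markers of HEK293T, another line of the series, summed to 37.2 and 34.3 CPM, with 1 of 6 over 10 CPM.

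A gene was read as different where the ratio of scaled sums was at least 1.5-fold and the 2 cultures held at least 200 counts of it together. In new RNA 39 genes were higher at 10 h (0.39% of 10008) and 75 were lower (0.749%). In whole RNA 115 were higher (0.877% of 13108) and 113 lower (0.862%). In pre-existing RNA 144 were higher (1.22% of 11826) and 106 lower (0.896%), together 2.11%. For scale, the same rule between 0 and 2 h took 9.68% of genes in new RNA and 3.56% in whole RNA, against 1.14% and 1.74% in either direction between 6 and 10 h. Of the 2 h steps in new RNA, that from 4 to 6 h took 0.81% of genes, that from 6 to 8 h 0.416% and that from 8 to 10 h 0.31%; in whole RNA the step from 4 to 6 h took 1.23%.

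The only test the design allowed was a slope over the 4 late cultures, 4, 6, 8 and 10 h, fitted with edgeR's quasi-likelihood test with 2 residual degrees of freedom and Benjamini-Hochberg adjustment over all genes. It found 497 genes upward in new RNA (3.07% of 16186) and 624 downward (3.86%), together 6.93%. These counts were 225 and 340 without the 4 h culture and 244 and 240 with DESeq2, and 381 were downward without the 10 h culture. In whole RNA 789 went upward (3.68% of 21469) and 809 downward (3.77%), together 7.44%, with 536 downward without the 8 h culture, 1326 upward with no filter on low counts, and 1311 upward and 1404 downward with the 2 h culture added. The slope contains the 6 and 10 h cultures, so it is not independent of the 10 h to 6 h ratio, and its p-values measure the scatter of single cultures around a line. Intervals given with ratios below are 95% exact intervals, which cover counting error only and no difference between cultures.

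New RNA of the classic receptor targets differed little between 6 and 10 h. FKBP5, a co-chaperone that restrains the receptor, stood in new RNA at 62.8, 771, 1059, 1016, 1004 and 951 CPM at 0, 2, 4, 6, 8 and 10 h. Its 10 h to 6 h log2 ratio was -0.10 (interval -0.14 to -0.05), and in pre-existing RNA its level was 522 CPM at 6 h and 620 CPM at 10 h. TSC22D3, which encodes the anti-inflammatory protein GILZ, had 229 CPM at 6 h, 227 at 8 h and 270 at 10 h in new RNA. PER1, a clock repressor, had 99.4, 95.8 and 92.8 CPM at those times. None of these new RNA slopes passed the test (edgeR adjusted p = 0.244 for FKBP5, 0.285 for TSC22D3 and 0.076 for PER1).

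New RNA of the receptor's own gene went up from 4 to 10 h, by less than 1.5-fold between 6 and 10 h. New RNA of NR3C1 was 1246 CPM at 0 h and 813 CPM at 4 h, and then 879, 956 and 1023 CPM at 6, 8 and 10 h. The 10 h to 6 h log2 ratio was 0.22 (interval 0.18 to 0.26), and the late slope was 0.056 per h (SE 0.011, edgeR adjusted p = 0.00234). Without the 10 h culture the slope was 0.058 with an adjusted p of 0.0503, and over 2 to 10 h it was 0.021 with an adjusted p of 0.41. The 10 h level thus lay above the 4 to 8 h levels and below that of 0 h. In whole RNA the NR3C1 slope passed with all 4 late cultures. It did not pass without the 8 h culture (edgeR adjusted p = 0.0788) or over 2 to 10 h (0.829).

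A list of 44 known glucocorticoid-induced genes was followed in new and in whole RNA. In new RNA 0 of 37 genes with enough counts passed 1.5-fold in either direction, with a median log2 ratio of -0.03 beside -0.01 over all genes. In whole RNA 5 of 41 were higher and 0 lower, beside 0.877% and 0.862% of all genes. The median was 0.01, equal to that of all genes, and the 5 were SERPINA3, MT1X, MT2A, ANPEP and CIDEC. The late slope in whole RNA was upward for 17 of 44 and downward for 3, beside 3.68% and 3.77% of all genes. In new RNA 4 of 42 went up and 5 down, beside 3.07% and 3.86%. Summed over the list, these genes took 1.01% of new counts at 6 h and 1.00% at 10 h, and 0.468% and 0.567% of whole counts.

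**Figure D1:**
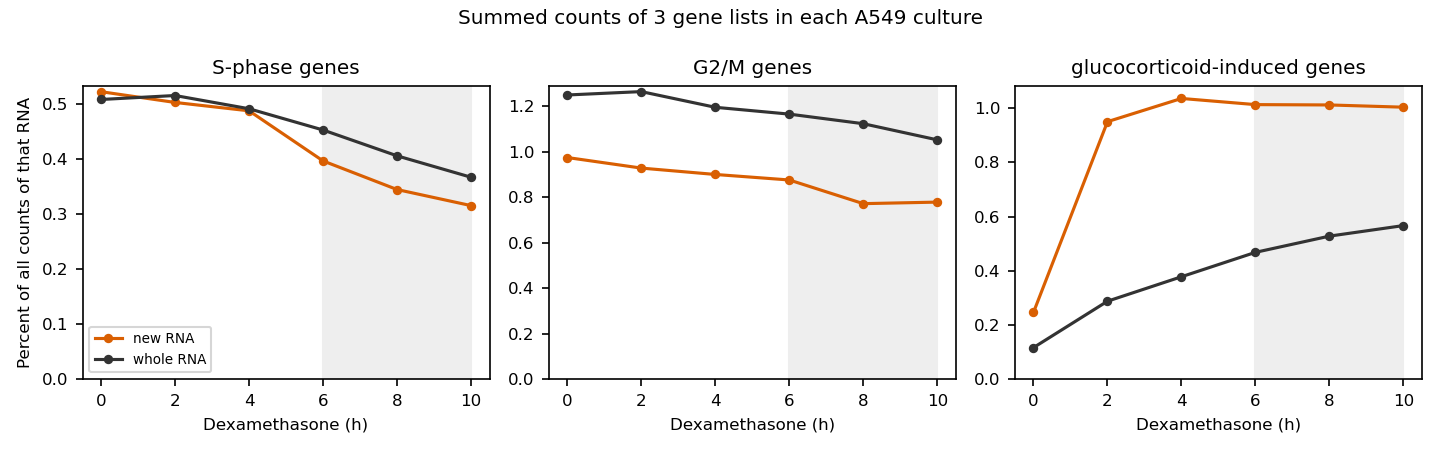
Share of all counts, in percent, taken by 3 gene lists in each A549 culture by hours of dexamethasone (1 culture per time, no error bars), in new RNA (orange) and whole RNA (black); the shaded span is 6 to 10 h. The glucocorticoid-induced list was level in new RNA from 4 h while its share of whole RNA went on from 0.468% at 6 h to 0.567% at 10 h, and the S-phase share of new RNA went from 0.396% to 0.315%.

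Metallothioneins, small cysteine-rich proteins that bind zinc and copper, were near level in new RNA while their whole RNA went up. Whole RNA of MT2A stood at 114, 154, 299, 490, 722 and 1038 CPM over the 6 times, and its new RNA at 25.7, 203, 281, 303, 307 and 268 CPM. Between 6 and 10 h whole MT2A was 2.12-fold higher (log2 1.08, interval 1.06 to 1.107), while new MT2A had a log2 ratio of -0.18 (interval -0.26 to -0.10). The new share of MT2A counts was 13.7% at 6 h and 5.4% at 10 h. MT1X followed the same course, at 81.6 CPM of whole RNA at 6 h, 122 at 8 h and 184 at 10 h (log2 1.17), with 31.7, 32.0 and 34.1 CPM of new RNA. Whole RNA slopes of both rose (edgeR adjusted p = 9.38e-08 for each), and those of new RNA did not pass (0.8 and 0.275). In all, 3 of 6 metallothioneins with enough counts were higher in whole RNA, MT1F being the third (log2 0.82), and 0 of 4 in new RNA. Over all genes these shares were 0.877% and 0.39%. The family has near-identical members, so counts of single members are uncertain.

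CIDEC, a lipid droplet protein, had the same form, with 102, 104 and 106 CPM of new RNA at 6, 8 and 10 h against 99.2, 137 and 162 CPM of whole RNA (log2 0.71, interval 0.65 to 0.76). ANPEP, a membrane aminopeptidase, had 21.4, 20.6 and 21.1 CPM of new and 16.4, 22.4 and 28.3 CPM of whole RNA. ACSL1, which activates long-chain fatty acids, had 110, 112 and 115 CPM of new and 107, 147 and 173 CPM of whole RNA. For each of these 3 genes the whole RNA slope rose (edgeR adjusted p = 4.69e-05, 4.82e-05 and 3.12e-05) and the new RNA slope did not pass. HSPB1, a small heat shock protein, likewise had 369, 329 and 340 CPM of new RNA beside 772, 969 and 1196 CPM of whole RNA. Its whole RNA log2 ratio was 0.63 (interval 0.61 to 0.65).

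Of 16 acute phase and complement genes tested in whole RNA, 6 were higher at 10 h and 0 lower, beside 0.877% and 0.862% of all genes. Their median log2 ratio was 0.26, beside 0.01 over all genes. SAA1, serum amyloid A, was scarce, at 1.496 CPM of whole RNA at 6 h, 6.09 at 8 h and 10.8 at 10 h, a 7.20-fold ratio from 65 and 435 counts (log2 2.85, interval 2.47 to 3.25). SAA1 has a near-identical neighbour, SAA2, so the split of counts between them is uncertain. SERPINA3, an inhibitor of chymotrypsin-like proteases, had 1.75, 2.81 and 5.00 CPM at those times (log2 1.52). C3, the central complement protein, had 20.9, 29.6 and 43.0 CPM of whole RNA (log2 1.04, interval 0.93 to 1.16) and 25.2, 28.9 and 34.8 CPM of new RNA.

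The 3 fibrinogen chains moved together. FGA had 128, 164 and 191 CPM of new RNA at 6, 8 and 10 h, with a log2 ratio of 0.58 (interval 0.47 to 0.69), and 0.94 in whole RNA. FGB had log2 ratios of 0.47 in new and 0.78 in whole RNA, and FGG of 0.29 and 0.64. All 3 rose in both RNAs by the late slope; for FGA the new RNA slope was 0.16 per h (SE 0.015, edgeR adjusted p = 2.12e-06). Over the list, 7 of 15 new RNA slopes and 8 of 21 whole RNA slopes were upward and 0 downward in either. Over all genes 3.07% of new and 3.68% of whole RNA slopes were upward. The new RNA slope of C3 lost its call without the 4 h culture (adjusted p = 0.0506), and that of SERPINA3 without the 4 h or the 10 h culture (0.218 and 0.375), as did whole RNA of SERPINA3 without 10 h (0.0809).

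**Figure D2:**
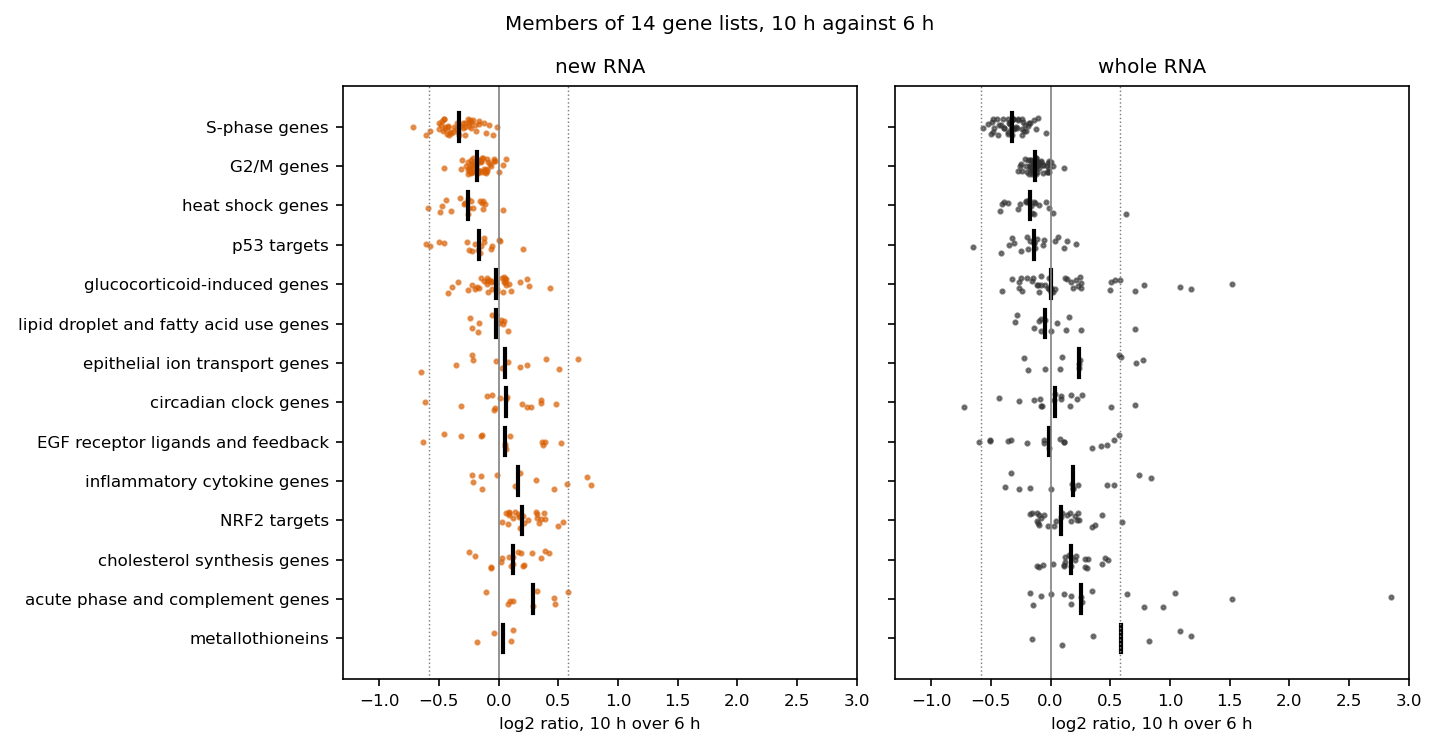
Log2 ratio of 10 h to 6 h for each member (points) of 14 gene lists with at least 200 counts over both cultures, in new RNA (left) and whole RNA (right); black bars are medians and dotted lines mark 1.5-fold. S-phase points lie left of 0 in both panels, while metallothionein and acute phase points reach past the right dotted line in whole RNA only.

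Among genes of epithelial salt and water transport, the 3 subunits of the epithelial sodium channel were all higher at 10 h. SCNN1A had 25.4, 30.7 and 43.4 CPM of whole RNA at 6, 8 and 10 h (log2 0.77, interval 0.66 to 0.88). SCNN1B had 10.3, 10.8 and 17.0 CPM (log2 0.71) and SCNN1G 6.26, 6.73 and 9.34 CPM (log2 0.58, just inside the 1.5-fold line). In new RNA SCNN1G was past that line, at 17.7, 20.2 and 28.1 CPM (log2 0.67, interval 0.38 to 0.96). Its slope passed in new RNA (edgeR adjusted p = 0.0361) but not without the 10 h culture (0.845), and the same held in whole RNA (0.0208 and 0.52). In at least 1 of the 4 late cultures 1 well held at least 20% or 1 cell at least 10% of the new SCNN1G counts. For SCNN1A the new RNA slope (0.0417) was lost without the 4 h culture (0.102) or the 10 h culture (0.567), and with DESeq2 (0.344).

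AQP3 and CKB went opposite ways in new and pre-existing RNA. AQP3, a channel for water and glycerol, had 2.34, 6.77, 22.7, 21.7, 14.7 and 13.9 CPM of new RNA over the 6 times and 11.3, 10.999, 29.5, 56.9, 79.3 and 88.8 CPM of pre-existing RNA. Between 6 and 10 h its new RNA had a log2 ratio of -0.65 (interval -0.99 to -0.32) and its pre-existing RNA one of 0.64 (interval 0.56 to 0.73). New counts were 9.9% of AQP3 counts at 6 h and 4.0% at 10 h. Its slope fell in new RNA and rose in whole RNA (edgeR adjusted p = 0.0124 and 0.000213), and the fall was lost without the 10 h culture (0.0675) or with DESeq2 (0.172).

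CKB, the brain-type creatine kinase, was singled out after its values were seen. It had 67.6, 52.2 and 42.6 CPM of new RNA at 6, 8 and 10 h, after a highest level of 99.5 CPM at 4 h, and 241, 317 and 375 CPM of pre-existing RNA. Its log2 ratios were -0.67 (interval -0.86 to -0.48) and 0.64 (interval 0.60 to 0.68). The new share of CKB counts was 7.5% at 6 h and 2.9% at 10 h, and the slope fell in new RNA (edgeR adjusted p = 2.53e-06) and rose in whole RNA (2.61e-05).

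**Figure D3:**
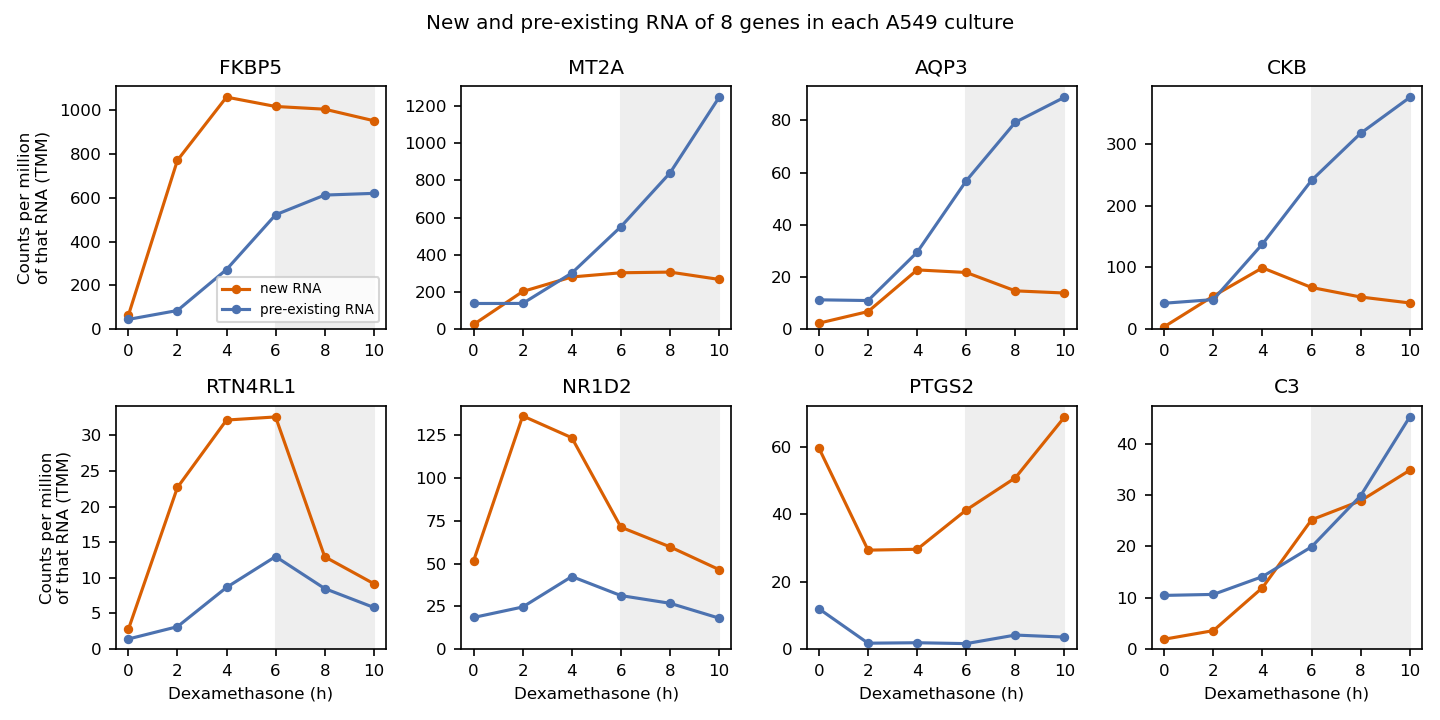
Level of 8 genes in each A549 culture by hours of dexamethasone, in TMM-scaled CPM of new RNA (orange) and of pre-existing RNA (blue), 1 culture per time and no error bars; the shaded span is 6 to 10 h and each panel has its own axis. FKBP5 and MT2A are near level in new RNA there, AQP3 and CKB go down in new and up in pre-existing RNA, RTN4RL1 and NR1D2 go down in both, and C3 goes up in both.

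New RNA that was higher at 10 h included genes that had been low at 2 or 4 h. PTGS2, the inducible cyclooxygenase of prostaglandin synthesis, had 59.5, 29.3, 29.6, 41.2, 50.7 and 68.7 CPM of new RNA over the 6 times, so the 10 h level was the highest of the course. Its 10 h to 6 h log2 ratio was 0.74 (interval 0.55 to 0.93) and its slope 0.20 per h (SE 0.021, edgeR adjusted p = 1.03e-05). CXCL5, a chemokine that attracts neutrophils, had 106, 21.2, 32.6 and 55.6 CPM of new RNA at 0, 4, 6 and 10 h (log2 0.77, interval 0.56 to 0.98). Its whole RNA was 51.1 CPM at 6 h and 59.8 at 10 h, a log2 ratio of 0.23.

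CYP24A1, which breaks down active vitamin D, followed the same course in new RNA, at 1321 CPM at 0 h and then 269, 345, 450 and 519 CPM at 4, 6, 8 and 10 h. Its late slope had the smallest adjusted p among protein-coding genes rising in new RNA (0.16 per h, SE 0.013, edgeR adjusted p = 6.49e-07). LAMB1, a laminin chain of the basement membrane, had 278, 84.9, 122 and 185 CPM at 0, 4, 6 and 10 h, a log2 ratio of 0.60 (interval 0.49 to 0.71). Its whole RNA stayed between 184 and 205 CPM over 6 to 10 h, and its new share was 14.3% at 6 h and 18.9% at 10 h. TGFB2, a secreted growth factor, had 77.3 and 117 CPM of new RNA at 6 and 10 h (log2 0.60). For these 3 genes and PTGS2 and CXCL5 the new RNA at 10 h was above that of 4, 6 and 8 h. With the 2 h culture added the slopes of CXCL5 and TGFB2 did not pass (adjusted p = 0.84 and 0.814).

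Other new RNA rose without an early fall past 1.5-fold. GPR1, a receptor for the adipokine chemerin, had 2.20, 7.05, 13.7, 12.4, 22.4 and 31.6 CPM of new RNA over the 6 times and a 10 h to 6 h ratio of 2.56-fold (log2 1.35, interval 1.04 to 1.68). Whole GPR1 was 2.52-fold higher (6.12 and 15.4 CPM), and its slope was 0.24 per h in new RNA (SE 0.036, edgeR adjusted p = 0.000237). MMP28, a matrix metalloproteinase, had 13.0, 17.8 and 23.8 CPM of new RNA at 6, 8 and 10 h (log2 0.87, interval 0.54 to 1.20). Its slope (edgeR adjusted p = 0.00335) was lost without the 10 h culture (0.276) or with DESeq2 (0.0934). PHLDB2, a cortical microtubule anchor, had 126, 117, 224, 297 and 336 CPM at 0, 2, 6, 8 and 10 h (log2 0.59), and ANKRD1, a nuclear ankyrin-repeat protein, had 564, 693 and 796 CPM at the last 3 times (log2 0.50). Both rose by the slope (edgeR adjusted p = 2.12e-06 for each).

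NAV3, a microtubule-binding protein, had a 10 h to 6 h log2 ratio of 1.34 in new RNA, from 98 and 220 counts. Unlike the genes above, it had fallen early in new RNA, with a log2 ratio of 2 h to 0 h of -1.56. Over 2 to 10 h its new RNA slope was 0.016 per h and did not pass (edgeR adjusted p = 0.938). One cell held 10.2% of its counts at 6 h, and with the fullest well of each time left out the log2 ratio was 1.40. STC2, a secreted glycoprotein, had 18.7, 24.2 and 31.2 CPM of new RNA at 6, 8 and 10 h (log2 0.74, interval 0.46 to 1.02). Its slope passed with all 4 cultures (edgeR adjusted p = 0.0101) and not without the 10 h culture (0.463). The STC2 slope also did not pass with DESeq2 (adjusted p = 0.162) or over 2 to 10 h (edgeR adjusted p = 0.298).

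Among new RNA that was lower at 10 h, several genes had first been induced. RTN4RL1, a receptor of the Nogo receptor family, had 2.75, 22.7, 32.1, 32.6, 13.0 and 9.18 CPM of new RNA over the 6 times. Between 6 and 10 h it was 3.55-fold lower (log2 -1.83, interval -2.20 to -1.47, from 313 and 78 counts), and in whole RNA 2.63-fold lower (17.2 and 6.54 CPM). The share of cells with at least 1 count, after thinning each cell to 15000 whole counts, was 19.1% (exact interval 16.9 to 21.3) of 1280 cells at 6 h and 6.76% (5.46 to 8.25) of 1317 at 10 h, and 26.9% and 11.96% unthinned. The A549 sample held no cell type that should lack the gene, so a background share was not analysed here. The new RNA slope fell (edgeR adjusted p = 9.64e-05), while the whole RNA slope (0.0189) did not pass without the 10 h culture (0.201) or with DESeq2 (0.165). With the 2 h culture added, which takes in the early rise, the new RNA slope did not pass either (0.0925).

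CORO2A, an actin-binding coronin, had 49.6 CPM of new RNA at 4 h and 36.5, 25.2 and 18.9 CPM at 6, 8 and 10 h (log2 -0.95, interval -1.23 to -0.67). ABCC8, the sulfonylurea receptor, had 39.8 CPM at 4 h and 25.4, 20.4 and 13.4 CPM after (log2 -0.92). At 0 h they had 3.30 and 4.81 CPM, so at 10 h both were still above 0 h. PREX1, an activator of Rac, had 68.0, 44.0 and 24.4 CPM at 2, 6 and 10 h (log2 -0.85), below its 31.6 CPM of 0 h. F3, tissue factor of blood clotting, had 18.3, 13.9 and 10.5 CPM at 6, 8 and 10 h (log2 -0.81). All 4 new RNA slopes fell (edgeR adjusted p = 7.7e-06, 1.42e-05, 9.48e-05 and 0.000789), those of CORO2A and ABCC8 no longer passing with the 2 h culture added (0.41 and 0.177). At 4 or 8 h, cultures used by the slope, 1 well held at least 20% or 1 cell at least 10% of the new F3 counts.

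The smallest adjusted p among protein-coding genes falling in new RNA belonged to FSTL4, a secreted follistatin-like protein, although its 105 and 18 new counts at 6 and 10 h were together under the count minimum. It had 49.2, 31.3, 10.9, 5.40 and 2.12 CPM of new RNA at 2, 4, 6, 8 and 10 h, a slope of -0.65 per h (SE 0.043, edgeR adjusted p = 7.34e-08). Its whole RNA went from 8.52 to 4.61 CPM between 6 and 10 h (log2 -0.89, interval -1.15 to -0.63). INHBB, a subunit of activin B, had 157, 133 and 111 CPM of new RNA at 6, 8 and 10 h and log2 ratios of -0.50 in new and -0.48 in whole RNA. CD109, a membrane protein that binds TGF-beta, had 256, 212 and 178 CPM of new RNA (log2 -0.53) with a whole RNA log2 ratio of 0.04. OXTR, the oxytocin receptor, was not induced at 2 h, at 18.0 CPM beside 15.8 at 0 h, and had 17.2 CPM of new RNA at 6 h and 9.41 at 10 h (log2 -0.87, interval -1.27 to -0.47). Its new RNA slope (edgeR adjusted p = 0.0171) did not pass without the 10 h culture (0.223).

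Whole RNA that was lower at 10 h included genes with few new counts at either time. C15orf48, a mitochondrial protein gene, had 20.5, 15.2 and 7.03 CPM of whole RNA at 6, 8 and 10 h (2.91-fold lower, log2 -1.54, interval -1.74 to -1.35), with 35 new counts at 6 h and 8 at 10 h. CLDN2, a pore-forming claudin, had 8.38, 4.99 and 4.16 CPM (log2 -1.01), with 12 and 5 new counts. PDE1C, a cyclic nucleotide phosphodiesterase, had 94.8 CPM of whole RNA at 0 h, 27.1 at 6 h and 14.6 at 10 h (log2 -0.89). AXL, a receptor tyrosine kinase, stayed within 1.5-fold, at 136, 110 and 96.1 CPM of whole RNA (log2 -0.50). Its new RNA was level at 38.0, 39.9 and 39.6 CPM. The whole RNA slopes of these 4 genes fell (edgeR adjusted p = 0.00395, 0.000306, 7.12e-06 and 2.32e-05).

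Genes of S phase and of G2/M had ratios mostly below 0, nearly all of them within 1.5-fold. All 46 S-phase genes had a log2 ratio below 0 in new and in whole RNA, with medians of -0.34 and -0.32 and ranges of -0.72 to -0.01 and -0.56 to -0.04. Late slopes fell for 39 of 46 in new and 41 of 46 in whole RNA, beside 3.86% and 3.77% of all genes. They rose for 0 of 46 in both. Only E2F1 and EXO1 were past 1.5-fold in new RNA. E2F1, the transcription factor of the G1 to S transition, had 32.5 CPM of new RNA at 4 h and 25.7, 18.5 and 15.6 at 6, 8 and 10 h (log2 -0.72, interval -1.03 to -0.41). EXO1, a DNA repair exonuclease, had 74.6, 61.8 and 49.1 CPM (log2 -0.60), and its slope (edgeR adjusted p = 0.000497) was lost without the 10 h culture (0.0523). PCNA, the sliding clamp of DNA polymerases, had 244, 191, 154 and 139 CPM at 4, 6, 8 and 10 h (log2 -0.46).

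As a share of new counts the S-phase genes were at 0.522, 0.503, 0.487, 0.396, 0.344 and 0.315% over the 6 times. Their share of whole counts was 0.453% at 6 h and 0.367% at 10 h. G2/M genes were below 0 in 51 of 54 in new and in whole RNA, with medians of -0.18 and -0.13. Of their slopes 16 in new and 12 in whole RNA fell, beside 3.86% and 3.77% of all genes, and 0 rose. None of the 54 was past 1.5-fold; their share of new counts was 0.876, 0.772 and 0.778% at 6, 8 and 10 h.

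NRF2 targets, which serve defence against oxidants, were above 0 in new RNA in 24 of 24. Their median log2 ratio was 0.19, beside -0.01 over all genes, with a range of 0.03 to 0.54. Their new RNA slope rose in 11 of 25 and fell in 0, while in whole RNA it rose in 3 and fell in 7. Over all genes 3.07% of new RNA slopes rose, and 3.68% of whole RNA slopes rose and 3.77% fell. TXNRD1, thioredoxin reductase, had 2836 CPM of new RNA at 0 h, 1756 at 4 h and 1894, 2213 and 2461 at 6, 8 and 10 h (log2 0.38, interval 0.35 to 0.41). HMOX1, heme oxygenase, had 32.7, 41.2 and 46.1 CPM of new RNA (log2 0.50) and was past 1.5-fold in whole RNA (21.1 and 31.9 CPM, log2 0.60), where the late slope did not pass (edgeR adjusted p = 0.31). NQO1, a quinone reductase, had a log2 ratio of 0.18 in new and -0.10 in whole RNA.

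Heat shock genes were below 0 in 18 of 19 in new RNA and 18 of 20 in whole RNA, with medians of -0.26 and -0.17. The slope fell in 2 of 20 in new and 13 of 20 in whole RNA, beside 3.86% and 3.77% of all genes. In whole RNA HSPB1 was the only 1 of 20 genes past 1.5-fold higher, beside 0.877% of all genes, and 1 slope of the list rose. In new RNA 0 genes were past 1.5-fold higher and 0 slopes rose. HSP90AA1, the inducible chaperone on which the receptor's hormone binding depends, had 1174, 808 and 777 CPM of new RNA at 6, 8 and 10 h (log2 -0.60, interval -0.64 to -0.55) and 3276, 3106 and 2556 CPM of whole RNA. It has processed copies elsewhere in the genome, so its counts may be split. Its new RNA slope passed with edgeR (adjusted p = 0.0162) and not with DESeq2 (0.589). HSPA8, the constitutive chaperone, had log2 ratios of -0.40 in new and -0.42 in whole RNA, and its slope fell in both (edgeR adjusted p = 0.0206 and 0.0163).

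In the circadian clock list 0 of 15 genes were higher and 1 was lower at 10 h in new RNA. In whole RNA 1 of 17 was higher and 1 lower. Over all genes 0.39% were higher and 0.749% lower in new RNA, and 0.877% and 0.862% in whole RNA. NR1D2, the repressor REV-ERB beta, had 51.7, 136, 124, 71.3, 59.8 and 46.5 CPM of new RNA over the 6 times, so that 10 h was below 0 h. Its log2 ratio of 10 h to 6 h was -0.62 in new RNA (interval -0.80 to -0.44) and -0.73 in whole RNA, and its slope fell in both (edgeR adjusted p = 2.87e-06 and 1.38e-05). HLF, a transcription factor of the PAR bZIP family, had 2.53, 3.54 and 4.14 CPM of whole RNA at 6, 8 and 10 h (log2 0.71, interval 0.35 to 1.07, from 110 and 167 counts). The other 14 of 15 genes tested in new RNA and 15 of 17 in whole RNA, PER2 and CRY2 among them, were within 1.5-fold.

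Among junction and keratin genes, 2 of 22 were higher and 1 lower in whole RNA, beside 0.877% and 0.862% of all genes. CDH1, E-cadherin, had 19.2, 23.7 and 29.0 CPM (log2 0.60) and CLDN7, a tightening claudin, 1.63, 2.35 and 3.19 CPM (log2 0.97), with CLDN2 the one that was lower. Inflammatory cytokine genes had 2 of 12 higher in new RNA, CXCL5 and PTGS2, and 2 of 13 in whole RNA, PTGS2 and NFKB2. Over all genes these shares were 0.39% and 0.877%. Of 18 cholesterol synthesis genes 0 were past 1.5-fold in new RNA (median 0.12) and 0 of 20 in whole RNA (median 0.17). Unfolded protein response genes had 0 past 1.5-fold among 18 in new and 20 in whole RNA. Of 18 p53 targets 16 were below 0 in new RNA, with SESN2, a stress-induced inhibitor of mTORC1, past 1.5-fold (15.4 and 10.1 CPM, log2 -0.61); its slope (edgeR adjusted p = 0.0359) did not pass without the 4, 8 or 10 h culture (0.125, 0.0533 and 0.298).

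The genes that had responded first were followed from 6 to 10 h. The early response was set by new RNA at 2 h against 0 h, cultures that the late ratio does not use, at 2-fold or more. This gave 257 induced genes (2.72% of 9453) and 88 repressed genes (0.931%). In new RNA 10 of 253 early-induced genes were lower at 10 h and 1 was higher, LPHN1, an adhesion receptor, with a median log2 ratio of -0.09. Of 75 early-repressed genes 5 were higher (PTGS2, HES1, LAMB1, NAV3 and CYP24A1) and 1 was lower (DIO2), with a median of 0.14. Among the 9045 genes in neither set 21 were higher and 50 lower, with a median of -0.01.

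Whole RNA gave the early-induced genes the other balance. Of 257, 16 were higher at 10 h and 7 lower, with a median of -0.03, and in pre-existing RNA 18 of 247 were higher and 7 lower. In whole RNA 4 of 86 early-repressed genes were higher and 3 lower, and in pre-existing RNA 5 of 72 were higher and 6 lower. Among genes in neither set 11 of 9107 were higher and 27 lower in whole RNA. In pre-existing RNA 31 of 8814 of them were higher and 36 lower. The early-induced genes higher in whole RNA included MT2A, CIDEC, FGA, FGB, ACSL1 and HSPB1. They also held S100P, a calcium-binding protein named here after its values were seen. Its new RNA was 145, 128 and 138 CPM at 6, 8 and 10 h and its whole RNA 163, 218 and 272 CPM (log2 0.74). Of the 31 genes higher in whole RNA that had enough counts at 0 and 2 h, 16 were early-induced, against 257 of all 9450.

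The cultures of 4 and 8 h share none of their cells with those of 6 and 10 h and span an equal interval. Of the 26 genes higher in new RNA at 10 h that had enough counts at 4 and 8 h, 23 were also higher at 8 h than at 4 h, 11 of them past 1.5-fold. Of 62 that were lower, 52 were also lower, 18 past 1.5-fold, while 5 were past 1.5-fold the other way. In whole RNA 75 of 83 higher genes and 71 of 91 lower genes kept their direction. Over all genes the shares with a given direction between 4 and 8 h were 51.02% upward in new RNA and 47.8% in whole RNA. Between 4 and 8 h 2.57% of genes passed 1.5-fold in new RNA and 2.63% in whole RNA.

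**Figure D4:**
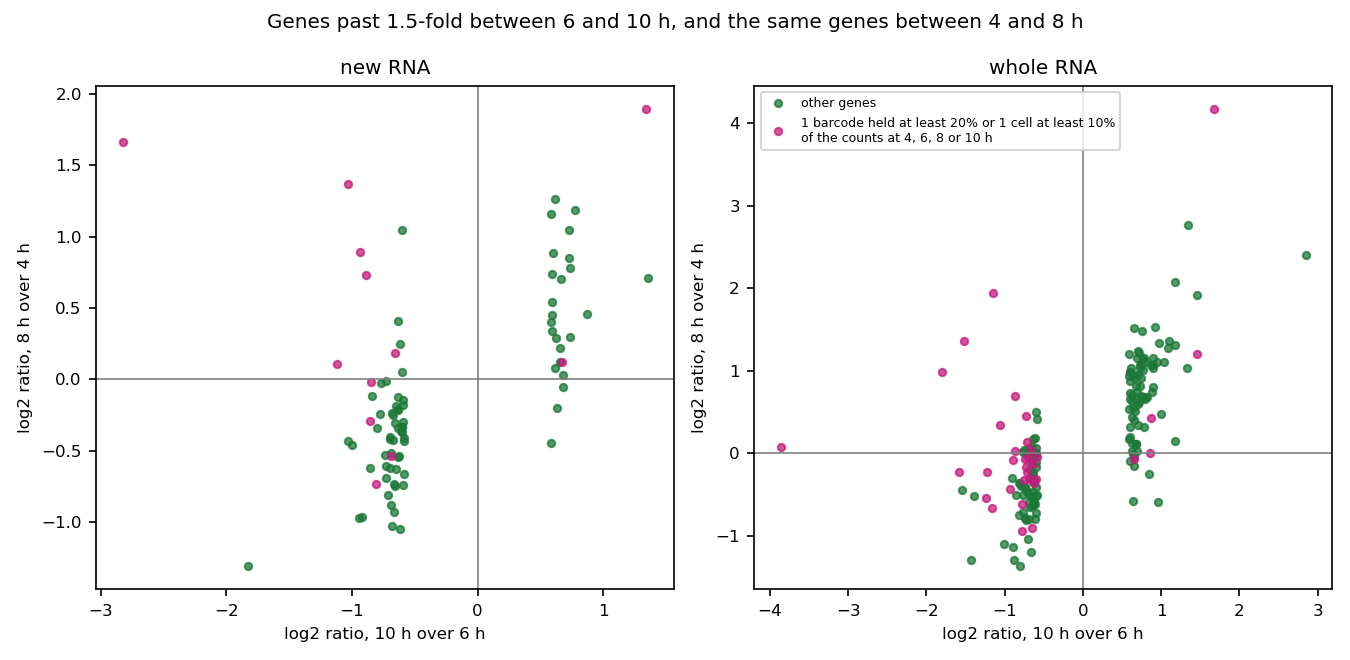
Log2 ratio of 10 h to 6 h (horizontal) against that of 8 h to 4 h (vertical) for each gene past 1.5-fold between 6 and 10 h with at least 200 counts at 4 and 8 h together, in new RNA (left) and whole RNA (right), 1 culture per time. Pink marks genes of which 1 reverse-transcription barcode held at least 20% or 1 cell at least 10% of the counts at 4, 6, 8 or 10 h; most green points lie at the lower left and upper right.

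Many of the most extreme ratios in whole RNA came with counts held by 1 well or 1 cell. Of the genes tested in whole RNA, 92 of 13108 (0.702%) had at least 20% of their counts in 1 reverse-transcription barcode or at least 10% in 1 cell at 6 or 10 h. Among genes at least 2-fold lower this was so for 18 of 22, and among those at least 2-fold higher for 11 of 25. LRRC36 had the highest whole RNA ratio (log2 4.00, 44 counts at 6 h and 654 at 10 h), and 93.9% of its 10 h counts were in 1 well. Without the fullest well of each time its log2 ratio was 0.10. CALCR, the calcitonin receptor (log2 3.41), had 88.3% of its 10 h counts in 1 well and a log2 ratio of 0.59 without the fullest wells. SORCS1, a sorting receptor (log2 -3.86), had 92.3% of its 6 h counts in 1 well and a ratio of -0.26 without, and SLC1A3, a glutamate transporter (log2 -4.22), 95.02% and -0.20.

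Other genes had a large share of their counts in single cells. LRP1B, a large endocytic receptor, had the lowest ratio in new RNA (log2 -2.82, 1009 counts at 6 h and 126 at 10 h), and 1 cell held 46.8% of its 6 h counts. Without the fullest well of each time its new RNA log2 ratio was -2.17. In whole RNA the log2 ratio of LRP1B was -1.79. Thinned to 15000 whole counts per cell, its whole RNA was found in 10.1% of cells at 6 h and 10.5% at 10 h. The share of cells thus did not follow the whole RNA counts. KRT6A, an epithelial keratin (whole log2 2.21, 115 and 496 counts), had 19.6% of its 10 h counts in 1 cell and a log2 ratio of 2.09 without the fullest wells. In new RNA 1 of the 39 higher and 8 of the 75 lower genes were held this way, against 0.270% of all genes tested. Of the ratios past 1.5-fold given before that of LRRC36, the one of NAV3 in new RNA was the only one from such a gene, judged by the counts at 6 and 10 h.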

How the data were processed

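Whole and new RNA were measured per cell in A549 cells. The authors deposited whole-number counts per gene and cell, for all RNA and for the newly synthesised part, with a cell annotation that gives the treatment time and a doublet score. Of tools, the submitters' processing notes name STAR 2.5.2b, Picard 1.105, Trim Galore 0.4.1 and SAMtools 1.3, with the builds hg19 and mm10. How duplicates were collapsed and how new RNA was called is not stated there. The deposited doublet score was used only to leave out cells in an alternative.

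Counts were summed per time over 43167 genes and scaled with TMM over the 6 cultures (edgeR 4.0.16, R 4.3.3), and pre-existing counts were whole minus new. TMM scales by the library total times a factor from a trimmed mean of gene ratios, so a change in total RNA per cell is not seen. A gene needed 200 counts over the 2 cultures and a 1.5-fold ratio; intervals are exact conditional binomial intervals at 95%. The slope over 4, 6, 8 and 10 h used glmQLFit and glmQLFTest after filterByExpr (minimum count 10), with adjusted p under 0.05 called. With simulated counts it recovered 35.7% of slopes of 0.1 and 74.2% of slopes of 0.2 log2 per h in new RNA, and 51.0% and 79.8% in whole RNA. The simulated counts had 1 common level of scatter between cultures for all genes and none held by 1 well or cell. Recovery in the real counts can therefore differ. Alternatives were DESeq2 1.42.0, other scalings, minima, folds, cell filters and left-out cultures. Other steps used Python 3.11.15, NumPy 2.4.6, pandas 2.3.3, SciPy 1.17.1 and Matplotlib 3.10.9.

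The gene lists, 29 in all, the comparison and the rules were chosen with earlier results of these data known. Named genes were the 12 protein-coding genes with the largest rise and fall in new and in whole RNA, up to 4 list members per direction past 1.5-fold, the 5 smallest adjusted slope p in each direction, the 5 largest changes of early-induced and early-repressed genes, and NR3C1, FKBP5, TSC22D3 and PER1; list members beyond these illustrate their list. Mitochondrially encoded genes were not analysed here. Whether a time came from more than 1 dish is not stated.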

Additional observations from a re-analysis of the deposited data

Results flagged for a closer look

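Genes past 1.5-fold between 6 and 10 h whose ratio between 4 and 8 h was past 1.5-fold with the opposite sign were singled out; the difference between the 2 intervals was not tested. In new RNA these were LRP1B (log2 -2.82 for 10 h over 6 h and 1.67 for 8 h over 4 h), FSTL5 (-1.03 and 1.37), VEGFC (-0.93 and 0.89), SEMA3A (-0.60 and 1.05) and NKAIN3 (-0.89 and 0.73). In whole RNA they were LRP1B (-1.79 and 0.99), CALCRL (-1.15 and 1.94), NKAIN3 (-0.86 and 0.69), MAP1A (-1.51 and 1.37) and ZNF469 (0.96 and -0.59). One cell held 46.8% of the new LRP1B counts at 6 h and 48.5% at 8 h, 34.8% of the new NKAIN3 counts at 8 h, 40.3% of the new FSTL5 counts at 10 h, 57.1% of the whole CALCRL counts at 6 h and 25.6% of the whole MAP1A counts at 8 h. For VEGFC, a lymphatic growth factor, the largest share of 1 cell was 10.4%, for SEMA3A, a guidance cue, 9.44%, and for ZNF469 5.21%. The part of single cells in these ratios was not tested.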

How the results depend on the processing

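No paired analysis was possible because each time was 1 culture with no replicate number. With at least 50 counts, genes higher and lower at 10 h numbered 248 and 361 in new, 359 and 454 in whole and 379 and 412 in pre-existing RNA. With at least 1000 counts they numbered 7 and 16, 55 and 29, and 69 and 24, and at 2-fold 2 and 6, 25 and 22, and 27 and 20. Other scalings, equal cell weights and cell filters kept these counts within 1.5 times. Of the ratios of named genes under these settings, 806 stayed within their interval and 44 moved outside it. A change of sign was looked for only in ratios past 1.5-fold, and none was found there. DESeq2 called 244 upward and 240 downward slopes in new RNA. Leaving out 1 culture gave 225 to 721 upward and 340 to 851 downward slopes in new RNA, and 566 to 830 and 536 to 811 in whole RNA. The calls in new RNA were 225 and 340 without the 4 h culture and 381 downward without the 10 h culture, and those in whole RNA 536 downward without the 8 h culture. Whole RNA gave 1326 upward slopes with no filter, and 1311 upward and 1404 downward over 2 to 10 h. Slopes over 2 to 10 h reversed for AQP3 in new RNA (0.033) and, in whole RNA, for ALPK2 (-0.015), CORO2A (0.044), ABCC8 (0.015), CYP24A1 (-0.068) and RHOBTB2 (0.037). Without the 10 h culture they reversed for KRT6A in new RNA (slopes without 1 culture -0.084 to 0.65) and, in whole RNA, for LRRC36 (-0.22 to 1.23) and CALCR (-0.11 to 1.06). Of the slopes of named genes under all these settings 814 kept direction and call, 93 lost the call and 9 reversed; the causes were not tested. The share of genes with the same direction between 4 and 8 h was 100% for higher and 100% for lower genes in new RNA and 90.0% for lower genes in whole RNA with at least 1000 counts, and 92.3% for lower genes in new RNA without genes held by 1 well or cell, a choice made after seeing the data. With at least 1000 counts these shares rest on at most 7 higher and 16 lower genes in new RNA and 29 lower in whole RNA. With early responders at 1.5-fold, 9 early-repressed genes were higher and 4 lower in new RNA; with total counts 2 were higher in whole RNA. Depth limits new RNA most: 10008 genes reached 200 counts there and 13108 in whole RNA.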

Other observations

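Interferon response genes were above 0 in new RNA in 8 of 8 with enough counts, with a median log2 ratio of 0.15, while in whole RNA 10 of 17 were above 0 with a median of 0.00; the new RNA slope rose in 2 of 18. Junction and keratin genes were above 0 in new RNA in 13 of 15, with a median of 0.17, and 6 of 22 new RNA slopes rose and 0 fell. Immediate early genes had 7 of 35 new RNA slopes upward and 0 downward, although their median ratio of 10 h to 6 h was 0.01. Over all genes 3.07% of new RNA slopes were upward and 3.86% downward. JUN, a subunit of the AP-1 transcription factor, had log2 ratios of 0.43 in new and 0.34 in whole RNA, and SPRY4, an inhibitor of receptor tyrosine kinase signalling, -0.64 and -0.60.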
